A study of Mus musculus with 6 samples.

Results

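The genes described here are the 40 genes of glucose uptake, glycolysis, pyruvate oxidation and the tricarboxylic acid (TCA) cycle, chosen by name from textbook pathways and matched by symbol to the authors' table of 36558 genes and to the symbols of their table of splicing events. All 40 were found and tested for expression. 36 of them have splicing events, 866 in all out of 265079, and no event of Gapdh, Pgk1, Pgam1 or Mpc1 was analysed here. Polyadenylated RNA was sequenced from the hearts of 3 control mice, whose Srsf3 gene is flanked by loxP sites (Srsf3Fl/Fl), and of 3 mice that carry the same floxed gene together with the βMHC-Cre transgene (Srsf3Fl/Fl-βMHC-Cre, called cKO). The transgene expresses Cre recombinase from the Myh7 promoter in cardiomyocytes, starting before birth, so the other cells of the heart keep Srsf3, which encodes a splicing factor of the SR family. The mice were untreated, their age is not given in the sources used here, and the controls carry no Cre, so an effect of the transgene itself and one of the deletion cannot be told apart. The comparison asks how hearts whose cardiomyocytes lose SRSF3 differ in their mRNA levels and splicing.

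Glycolysis splits glucose into pyruvate in the cytosol and yields a little ATP and NADH. Pyruvate enters mitochondria through the pyruvate carrier, is turned into acetyl-CoA by the pyruvate dehydrogenase complex and is oxidised in the TCA cycle, which feeds electrons to the respiratory chain. The adult heart draws most of its ATP from mitochondrial oxidation of fatty acids, with glucose and lactate as further fuels. Many glycolytic steps are served by isozymes, 1 form typical of muscle and others more common in other tissues.

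The values are the authors' own comparison of the groups: for each gene the mean normalized count over all 6 libraries and the log2 fold change with a standard error (SE), and for each event 1 inclusion level per group. Values of single hearts were not used, so the spread between animals is seen only through the SE, and depth per library is unknown. Positive fold changes are higher in cKO. The gene table does not name its reference group, and this direction was settled from the event table. No read depth was used. Depth was inferred from how far near-full exons lay from full inclusion, a smaller distance in cKO being taken as more depth in cKO. Of 629 genes past the test, 596 (94.8%) had the sign of this inferred depth, cKO against control, relative to the median of all genes. Srsf3 had a log2 fold change of 0.02 (SE 0.07), per the authors' deposited table; it is also in the authors' sleuth list. As a sum over all transcripts in whole hearts this value does not check the deletion. The tissue label was checked with cardiomyocyte genes, which were abundant: cardiac troponin T, Tnnt2, had a mean normalized count of 367736, per the authors' deposited table.

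The mRNAs that passed the test were all lower in cKO hearts, and they lie at steps from phosphofructokinase to malate dehydrogenase. At an adjusted p under 0.05 in the authors' DESeq2 test, 12 of the 40 genes were lower and 0 were higher in cKO, against 3.31% of all 15929 tested genes lower and 3.78% higher (7.09% in either direction). A larger share of abundant genes passed. Among tested genes averaging 5000 normalized counts or more, 9.33% were lower and 3.19% higher (12.5% in either direction), while 11 of the 33 pathway genes of that abundance were lower. Without adjustment, 18 of the 40 had a p under 0.05 and a negative value, and 1, Hk1, had one with a positive value. Over all 15929 tested genes these counts were 1472 and 1585. Among the 1286 averaging 5000 or more they were 290 and 94, beside 16 and 1 of the 33 pathway genes of that abundance. Negative values were found for 37 of the 40, with a median of -0.18, beside 50.8% negative and a median of -0.0038 over all tested genes. For genes averaging 5000 or more these were 66.5% and -0.07.

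The falls were small. Of the genes that passed, 11 lay between -0.23 and -0.51 on the log2 scale, and the scarce aldolase Aldoc at -0.94, per the authors' deposited table. In the same hearts all 13 cardiomyocyte markers had negative values, from -0.43 to -0.03 with a median of -0.31, and 6 of them passed. All 15 myeloid markers had positive values, from 0.09 to 1.11 with a median of 0.57, and 6 passed. Of the 40 pathway genes 34 had values above the cardiomyocyte median, among them 7 of the 12 that passed. In whole hearts, fewer cells of a type and less RNA per cell cannot be told apart, and the part of these markers in the pathway values was not tested.

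**Figure D1:**
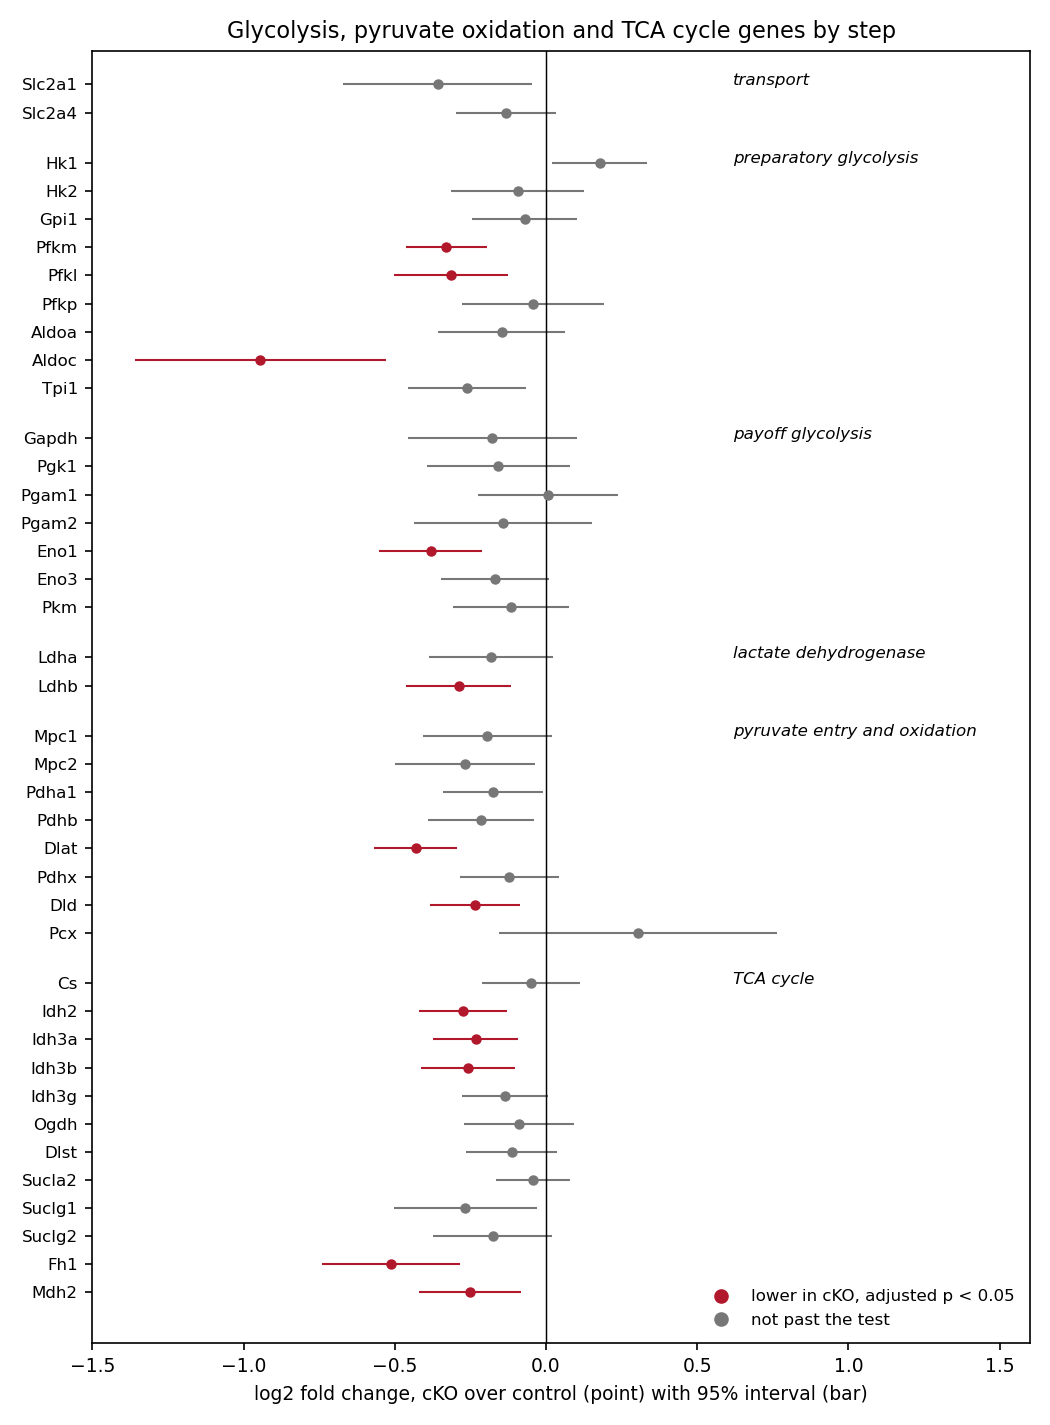
Log2 fold change of each of the 40 genes, cKO over control, ordered by step from glucose uptake to the TCA cycle; points are the authors' values and bars are 95% intervals computed from their SE. The 12 red points passed the authors' test and all lie below 0; Hk1, Pgam1 and Pcx are the points above 0.

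**Figure D2:**
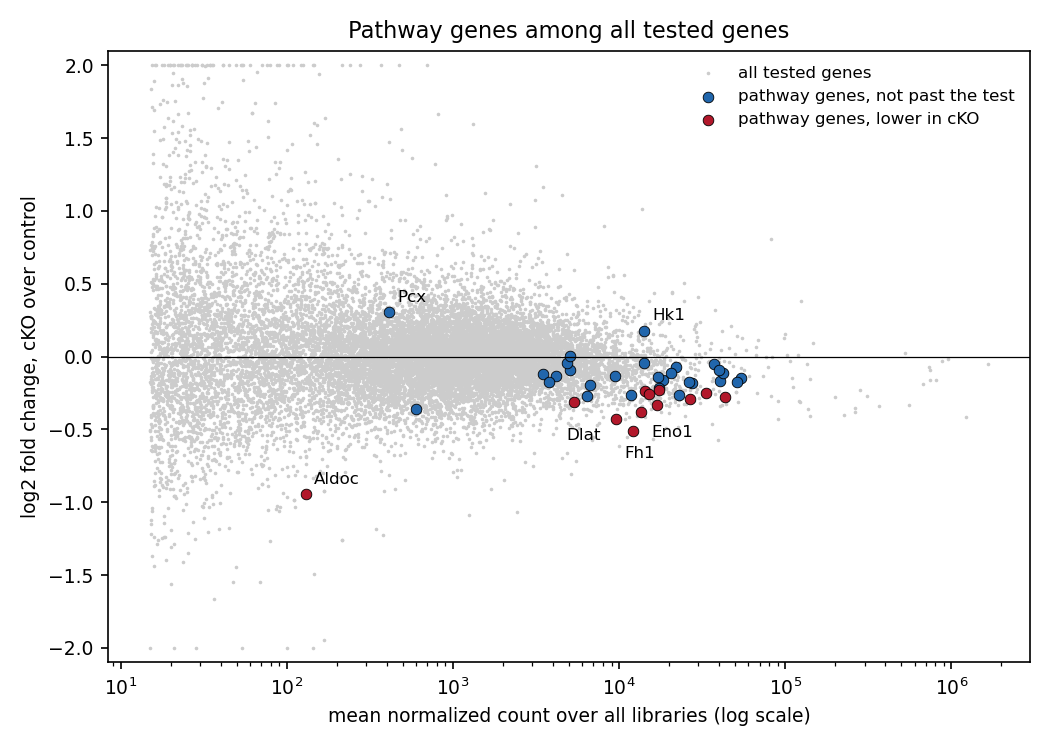
Log2 fold change against mean normalized count (log scale) for all tested genes (grey) and the 40 pathway genes (blue, not past the test; red, lower in cKO); 61 genes beyond 2 in either direction are drawn at the edge. Most pathway genes sit at high counts, just under 0, with Aldoc and Pcx at low counts.

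Glucose entry and its first phosphorylation did not pass the test. Slc2a4, the insulin-regulated transporter GLUT4, had a log2 fold change of -0.13 (SE 0.09), and Slc2a1, the basal transporter GLUT1, one of -0.36 (SE 0.16, adjusted p = 0.174), per the authors' deposited table. Hexokinase 1, Hk1, stood at 0.18 (SE 0.08, adjusted p = 0.177) and hexokinase 2, Hk2, at -0.09 (SE 0.11), per the authors' deposited table. Gpi1, which isomerises glucose 6-phosphate, was at -0.07 (SE 0.09), per the authors' deposited table.

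The mRNAs of the muscle and liver forms of phosphofructokinase, the committed step of glycolysis, were lower. The muscle form Pfkm, on chromosome 15 at 98092589 to 98132451 (GRCm38), fell by 20.5% (log2 -0.33, SE 0.07, DESeq2 adjusted p = 0.000130), per the authors' deposited table. The liver form Pfkl fell by 19.6% (log2 -0.31, SE 0.10, DESeq2 adjusted p = 0.0225), while the platelet form Pfkp was at -0.04 (SE 0.12), per the authors' deposited table. Of the counts per kilobase of the 3 forms Pfkm made up 69.3%, or 52.8% with the median transcript length in place of the longest. The difference in fold change between the forms was not tested, since it needs values of single hearts.

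Below this step, the scarcer isozymes Aldoc and Eno1 fell, and the enzymes of the other steps did not pass. Aldolase A, Aldoa, was at -0.15 (SE 0.11) with a mean of 53865 normalized counts, and a second gene model of the same symbol at -0.17 (SE 0.38) with a mean of 34.0, per the authors' deposited table. Aldoc, the brain form, fell by 48.0% (SE 0.21 on the log2 scale, DESeq2 adjusted p = 0.000624) at a mean of 130 normalized counts, per the authors' deposited table. It made up 0.134% of aldolase counts per kilobase. Triose phosphate isomerase, Tpi1, was at -0.26 (SE 0.10, adjusted p = 0.0930), Gapdh at -0.18 (SE 0.14) and Pgk1, which makes the first ATP of the pathway, at -0.16 (SE 0.12), per the authors' deposited table. Phosphoglycerate mutase had its muscle form Pgam2 at -0.14 (SE 0.15) and its broadly expressed form Pgam1 at 0.01 (SE 0.12), per the authors' deposited table. The broadly expressed enolase Eno1, on chromosome 4 at 150236721 to 150248879, fell by 23.2% (log2 -0.38, SE 0.09, DESeq2 adjusted p = 0.000787), and the muscle enolase Eno3 was at -0.17 (SE 0.09, adjusted p = 0.298), per the authors' deposited table. Eno3 made up 79.6% of enolase counts per kilobase. Several of these genes have near-identical copies that can share reads; the retrocopy Eno1b had a mean of 26.7 normalized counts beside 13468 for Eno1, and Pgk1-rs7 one of 107 beside 18270 for Pgk1, per the authors' deposited table.

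**Figure D3:**
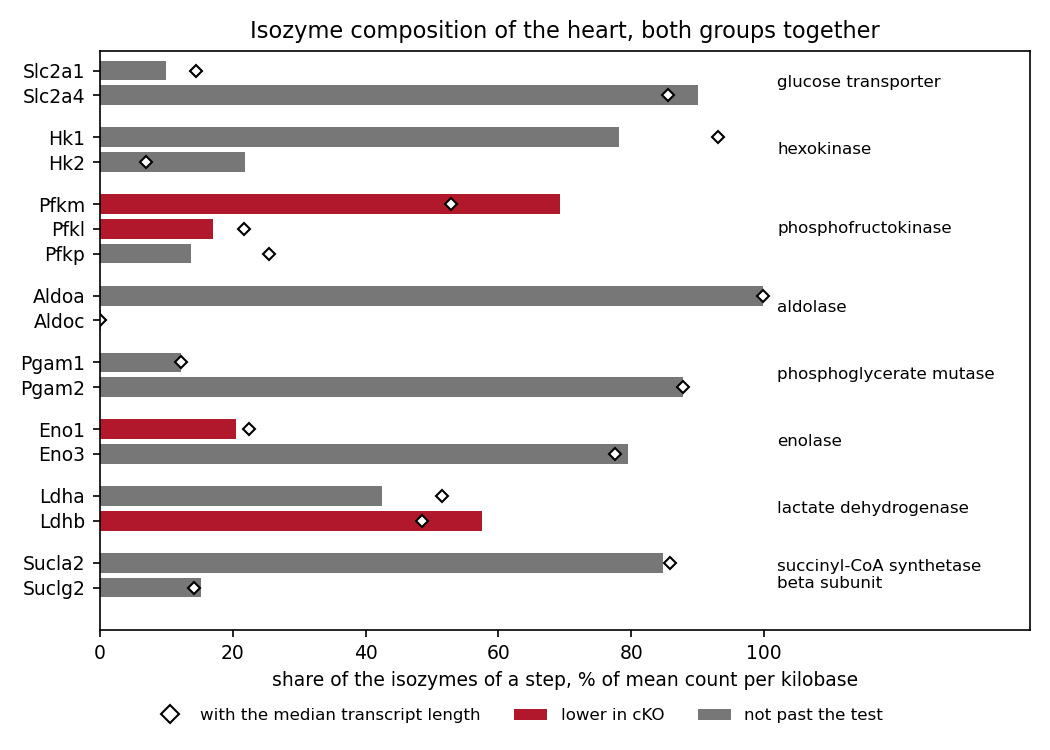
Share of each isozyme in the counts per kilobase of its step, from the mean over all 6 libraries, with the longest coding transcript as length (bars) or the median length (diamonds); red marks genes lower in cKO. Slc2a4, Pgam2, Eno3 and Aldoa hold most of their steps, and lactate dehydrogenase is split between both genes, in an order that turns with the length used.

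Pyruvate kinase, the last step of glycolysis, changed in its splicing and not detectably in its total. Pkm, on chromosome 9 at 59656368 to 59679375 of GRCm38, had a log2 fold change of -0.11 (SE 0.10, adjusted p = 0.588) at a mean of 42072 normalized counts, per the authors' deposited table. Its transcripts hold either exon 9, which gives the M1 enzyme of adult muscle, or exon 10, which gives the M2 enzyme found in most other adult cells and in growing tissue. Exon 9 was included at 78.4% in control and 67.0% in cKO, per the authors' deposited table, a difference of -11.4 points. The authors' minimum change, the size exceeded with probability 0.95, was 10 points, the value at which they kept events, and this was the 1 called event among the 866 of the pathway (0.115%, against 0.23% of all events). At 5 points there were 4, both Pkm exons and a pair of Eno3 sites, against 0.633% of all events. Exon 10 was at 15.7% in control and 24.2% in cKO, per the authors' deposited table, a difference of 8.55 points with a minimum change of 6 points. The levels of both exons summed to 94.0% in control and 91.2% in cKO. Of this sum exon 10 made up 16.6% in control and 26.5% in cKO, and there was 5.01 times as much exon 9 as exon 10 in control and 2.77 times as much in cKO.

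The exclusive exons are shown because a switch from one to the other alters the enzyme without altering transcript length. They are coding, on the plus strand, at chr9:59675029-59675195 (exon 9) and chr9:59675568-59675734 (exon 10) of GRCm38, read from GENCODE M21 transcripts, 5′ to 3′. Each is 167 bases long, and they are identical at 103 positions (61.7%). Capitals mark the 64 positions at which they differ when aligned without gaps.
Exon 9: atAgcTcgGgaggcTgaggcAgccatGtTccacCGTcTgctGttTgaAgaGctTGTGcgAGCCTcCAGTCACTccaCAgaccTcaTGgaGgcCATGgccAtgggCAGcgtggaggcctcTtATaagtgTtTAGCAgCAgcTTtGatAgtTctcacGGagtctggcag
Exon 10: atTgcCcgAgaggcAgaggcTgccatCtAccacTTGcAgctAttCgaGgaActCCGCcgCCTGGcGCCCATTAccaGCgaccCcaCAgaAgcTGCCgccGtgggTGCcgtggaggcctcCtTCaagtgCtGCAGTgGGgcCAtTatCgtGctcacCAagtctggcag
G and C made up 56.3% of exon 9 and 62.9% of exon 10. The event of exon 9 has the length of that exon (chr9:59522836-59523002 on mm9). That of exon 10 starts 539 bases after the start of exon 9, as exon 10 does, but ends 308 bases beyond it (chr9:59523375-59523849), so its level is a less direct measure. A retention event of the intron that spans exon 9, chr9:59519881-59523374, was at 12.5% in control and 10.6% in cKO, per the authors' deposited table, with a minimum change of 0.

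Of 9 factors known to act on Pkm exon choice or linked to it, 1 rose, 1 fell and 7 did not pass by DESeq2. Of all tested genes 7.09% passed in either direction. The authors' sleuth list holds 4 of the 9, Rbm4 and, of those that did not pass, Hnrnpa2b1, Srsf3 and Nek2, beside 516 of the 15929 tested genes. Rbm4, an RNA-binding protein, rose by 0.61 (SE 0.13, DESeq2 adjusted p = 0.000313) on the log2 scale, and Hnrnpa1, which represses exon 9 in human cells, fell by 0.25 (SE 0.08, DESeq2 adjusted p = 0.0183), per the authors' deposited table. Hnrnpa2b1 and Ptbp1, which also repress exon 9 in human cells, stood at -0.01 and 0.05, per the authors' deposited table. In human cell lines SRSF3 is reported to favour exon 10. Exon 10 is the form of most cells other than muscle. Of their markers in the same hearts, the myeloid ones were positive (median 0.57, 6 of 15 past the test), as were the epicardial ones (median 0.76, 1 of 7). Fibroblast and endothelial markers had medians of 0.04 (1 of 10 past the test, lower) and -0.02 (1 of 12, higher). Cardiomyocyte markers were negative (median -0.31, 6 of 13 past the test). The part of these cells in the exon levels was not tested.

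Lactate dehydrogenase interconverts pyruvate and lactate. Ldhb, the heart form, fell by 18.2% (log2 -0.29, SE 0.09, DESeq2 adjusted p = 0.0222), and Ldha, the muscle form, was at -0.18 (SE 0.10, adjusted p = 0.339), per the authors' deposited table. Ldhb made up 57.5% of lactate dehydrogenase counts per kilobase with the longest transcripts and 48.4% with the median length, so the order of the levels is not settled.

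Of the mRNAs of 8 genes of pyruvate entry and oxidation 2 passed, both lower. They encode the E2 and E3 components of the pyruvate dehydrogenase complex. Dlat, the acetyltransferase (E2), on chromosome 9 at 50634633 to 50659780 of GRCm38, fell by 25.8% (log2 -0.43, SE 0.07, DESeq2 adjusted p = 1.49e-07), the smallest p of the 40 genes, per the authors' deposited table. Dld, the dihydrolipoamide dehydrogenase (E3) that the oxoglutarate complex shares, fell by 15.0% (SE 0.08 on the log2 scale, DESeq2 adjusted p = 0.0347), per the authors' deposited table, and lost its call when p-values were adjusted over every gene with one. The E1 subunits Pdha1 and Pdhb were at -0.17 (SE 0.08) and -0.21 (SE 0.09), with unadjusted p of 0.0395 and 0.0161 in the DESeq2 test, and the E3-binding protein Pdhx at -0.12 (SE 0.08), per the authors' deposited table. Subunits of the mitochondrial pyruvate carrier, Mpc1 and Mpc2, stood at -0.19 (SE 0.11) and -0.27 (SE 0.12), per the authors' deposited table. Pyruvate carboxylase, Pcx, which makes oxaloacetate from pyruvate, had the highest value of the 40, at 0.30 (SE 0.23, adjusted p = 0.532) and a mean of 412 normalized counts, per the authors' deposited table. Of 7 genes for the kinases and phosphatases that switch pyruvate dehydrogenase off and on, a regulatory subunit included, 0 passed in the DESeq2 test. Of these 7, 2 had an unadjusted p under 0.05 in that test and 0 are in the authors' sleuth list. Pdk1 and Pdk2 were at -0.28 and -0.20, and Pdk4, the kinase induced by fasting and fatty acids, at 0.40 with an SE of 0.36, per the authors' deposited table.

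In the TCA cycle all 12 genes had negative values, and 5 of them passed. Fumarate hydratase, Fh1, on chromosome 1 at 175600374 to 175625635 of GRCm38, fell by 29.9% (log2 -0.51, SE 0.12, DESeq2 adjusted p = 0.000723), per the authors' deposited table. Isocitrate dehydrogenase was lower in its NADP form Idh2 at -0.27 (SE 0.07, DESeq2 adjusted p = 0.00811) and in the NAD form at Idh3a, -0.23 (SE 0.07), and Idh3b, -0.26 (SE 0.08), while the regulatory subunit Idh3g was at -0.14 (SE 0.07, adjusted p = 0.292), per the authors' deposited table. Mdh2, the malate dehydrogenase that closes the cycle, was at -0.25 (SE 0.09) with an adjusted p of 0.04997, per the authors' deposited table, just inside the threshold, and lost its call under that wider adjustment and when fold changes were centred on the median of all genes.

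Citrate synthase and the other genes of the steps from oxoglutarate to succinate did not pass, apart from Dld. Dld, which the oxoglutarate complex shares with pyruvate dehydrogenase, is given above among the genes that were lower. Citrate synthase, Cs, stood at -0.05 (SE 0.08) at a mean of 37462 normalized counts, per the authors' deposited table, with a 95% interval of -0.21 to 0.11. The oxoglutarate dehydrogenase components Ogdh and Dlst were at -0.09 (SE 0.09) and -0.11 (SE 0.08), per the authors' deposited table. Succinyl-CoA synthetase had its ADP-forming subunit Sucla2 at -0.04 (SE 0.06), its GDP-forming subunit Suclg2 at -0.18 (SE 0.10) and the shared subunit Suclg1 at -0.27 (SE 0.12), per the authors' deposited table. Fh1 was the lowest of the 12 TCA genes and Cs was among those nearest 0. Their 95% intervals do not overlap, -0.74 to -0.28 against -0.21 to 0.11, but a pair picked from the extremes favours such a gap. The difference itself was not tested.

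In neighbouring pathways between 0 and 2 genes of a list passed, beside 7.09% of all tested genes. Of 11 other TCA genes 1 fell, Sdhb of succinate dehydrogenase (-0.36, SE 0.11, DESeq2 adjusted p = 0.0284), with a list median of -0.18, per the authors' deposited table. Of 10 genes of the NADH shuttles and carriers 2 fell, the dicarboxylate carrier Slc25a10 (-0.39) and the cytosolic aspartate transaminase Got1 (-0.20), per the authors' deposited table, with a median of -0.18. Among 13 further isozymes and transporters of glycolysis, of which 11 were tested, the glucose transporter Slc2a12 fell by 0.92 (SE 0.24, DESeq2 adjusted p = 0.00429) and the ADP-dependent glucokinase Adpgk rose by 0.35 (SE 0.10) on the log2 scale, per the authors' deposited table, and their median was 0.06. In the glycogen list 1 of 13 passed, glycogenin Gyg, the primer of glycogen synthesis, which rose by 0.36 (SE 0.10, DESeq2 adjusted p = 0.0122), per the authors' deposited table. Of 16 transcription regulators of these pathways the coactivator Ppargc1b (-0.37) and the muscle regulator Perm1 (-0.25) fell, per the authors' deposited table. In the list for control of phosphofructokinase 0 of 6 tested genes passed by DESeq2, with 0 at an unadjusted p under 0.05 and 0 in the sleuth list, and Tigar and Pfkfb2, the most abundant, were at -0.03 and -0.06, per the authors' deposited table. In the lipoylation list, whose enzymes make or attach the cofactor of E2, 0 of 4 passed by DESeq2. Of the 4, 1 had an unadjusted p under 0.05 in that test and 0 were in the sleuth list. Lias and Mcat, the most abundant, were at 0.04 and -0.01, per the authors' deposited table.

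**Figure D4:**
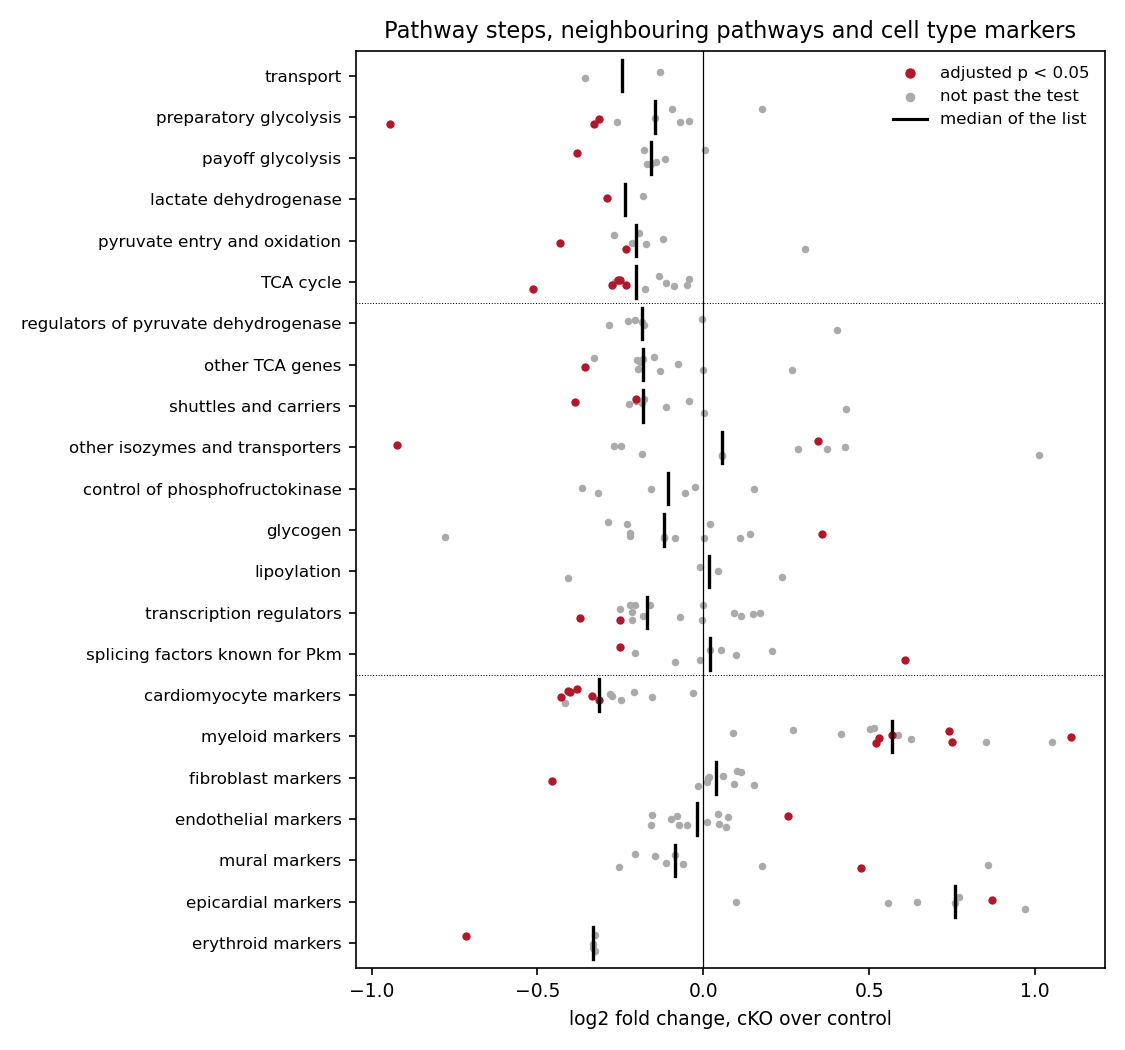
Log2 fold change, cKO over control, of single genes (points; red, past the test) and list medians (bars) for the pathway steps (top), neighbouring pathways (middle) and cell type markers (bottom). Medians of the pathway steps lie between -0.25 and -0.15, between those of the cardiomyocyte (-0.31) and fibroblast (0.04) markers, and myeloid markers are all above 0.

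Fibroblast and endothelial markers had medians near 0, at 0.04 and -0.02. Of them 1 of 10 and 1 of 12 passed the test, Thy1 lower at -0.46 and Vwf higher at 0.25. Mural markers had a median of -0.09, and the 1 of 9 past the test, Tagln, was higher at 0.47. Epicardial markers were all positive (median 0.76, 1 of 7 past the test) and erythroid markers all negative (median -0.33, 1 of 5 past the test).

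Most splicing events of the pathway had near-equal levels in both groups. Of the 866 events, 803 (92.7%) differed by less than 1 point, against 67.3% of all events in the table. A minimum change above 0 was given for 11 events (1.27%, against 2.22% of all events), in 6 genes. Most pathway genes are abundant, and neither share, nor that of called events, was compared with events of genes of like abundance. By the size of the difference alone 9 events reached 10 points, and Pkm exon 9 was the 7th largest. Of the 322 exon events 259 were above 99% in both groups, and of the 338 intron events 252 were under 1% in both. 35 events, in 13 genes, lay between 5% and 95% in both groups.

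Eno3 had the next largest minimum change. Its exon 2 can start at either of a pair of 3′ splice sites. The site nearer the start codon (chr11:70471374-70471460 on mm9, 87 bases of which 85 are coding) took 68.4% of the transcripts in control and 77.5% in cKO, per the authors' deposited table. The other site, which adds untranslated leader for an exon of 199 bases, was used at 31.6% and 22.5% there, and both had a minimum change of 7 points. Both forms hold the same number of coding bases of this exon.

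Ogdh varied at its leader and at exon 4. A non-coding first exon of 342 bases (chr11:6192175-6192516 on mm9) took 13.7% in control and 28.6% in cKO, and the form of 120 bases from the same start 85.6% and 71.6%, each with a minimum change of 2 points, per the authors' deposited table. At coding exon 4, the full donor site (91 bases) was used at 65.6% and 74.9% with a minimum change of 0, and a site giving 48 bases at 14.6% and 1.79% with a minimum change of 1 point, per the authors' deposited table. All of these minimum changes are far below the differences themselves.

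Smaller shifts with some certainty were seen in 3 more genes. The coding cassette of 69 bases in Hk1 was included at 2.05% in control and 5.03% in cKO, per the authors' deposited table, with a minimum change of 1 point. Exons 3 and 4 of Slc2a4, of 173 and 125 coding bases, were at 98.9% and 99.4% in control and at 94.3% and 96.8% in cKO, per the authors' deposited table, with minimum changes of 2 and 1 points. In Idh3g an intron of 190 bases was retained at 4.04% in control and 6.41% in cKO, per the authors' deposited table, with a minimum change of 1 point. Larger differences with a minimum change of 0 were an Ldha intron of 207 bases (62.9% and 43.1%), an alternative 3′ splice site of Sucla2 (43.0% and 30.2%), exon 2 of Pcx (96.8% and 86.7%) and a Pcx intron of 210 bases (7.23% and 17.8%), per the authors' deposited table; for these the data give no bound above 0.

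The 6 genes with an event of minimum change above 0 (Slc2a4, Hk1, Eno3, Pkm, Ogdh and Idh3g) were not among the 12 that passed the DESeq2 test. The 12 are 30% of the 40, beside 7.09% of all tested genes. With only 6 genes, the lack of overlap was not tested and is not read as a result. The depth inferred from near-full exons of the same libraries was below the median of all genes for 22 of the 26 pathway genes with at least 3 such exons. The same held for 9 of the 10 among them that were lower in cKO. Since the direction was settled from this inferred depth, these counts are no separate support. It can also stray from the log2 fold change: Ogdh had -1.03 beside -0.09, and Idh2 had 0.10 beside -0.27. In the authors' own lists from other pipelines, 6 of the 12 genes were also called with sleuth (Aldoc, Eno1, Ldhb, Dlat, Idh2 and Fh1), and 0 with featureCounts. The sleuth list holds 516 of the 15929 tested genes and 112 of the 1286 averaging 5000 or more. The featureCounts list holds 105 and 0 of these. Since 11 of the 12 genes are of that abundance, its 0 says nothing about them. Eno3 is in the sleuth list without passing the DESeq2 test.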

How the data were processed

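Polyadenylated RNA of whole hearts was sequenced from stranded libraries, per the labels' protocols. Groups come from the sample descriptions; replicate numbers follow accession order, so they do not pair hearts. Tools listed, without roles, in the submitters' processing notes are Trimmomatic 0.38, FastQC 0.10.1, DESeq2 1.24.0 and kallisto 0.46.0. The authors made the gene table from kallisto estimates with DESeq2, as it is labelled. The sources used here do not give the vast-tools version or transcriptome release.

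The authors deposited, per the file headers, a mean normalized signal (counts divided by size factors, over all libraries), a log2 fold change with its SE, the Wald score, and a p-value with its adjusted value for each gene, plus gene lists of their sleuth and featureCounts pipelines. For splicing events, on mm9, the authors deposited 1 inclusion level per group as a fraction (printed as percent), and as scores the difference and its minimum at probability 0.95, per the file headers. These are group comparisons, so no library was refitted, no sample was assigned a column, and p-values measure the spread between the 3 samples of a group, which the labels do not say come from separate litters or days.

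With Python 3.11.15 and pandas 2.3.3, 35856 gene IDs were matched to symbols (GENCODE M21, GRCm38), 34 genes to events by symbol and 2 (Pkm as Pkm2, Mpc2) by an older symbol. Events were assigned to exons by length and spacing. Adjustment and recomputed Wald p-values were checked on simulated data. Calls are an adjusted p under 0.05 and a minimum change of at least 10 points. Levels between genes were compared per kilobase of the longest coding transcript. The direction of fold changes used exons within 3 points of full inclusion, at least 3 per gene. The genes and lists were chosen with earlier results of these data known. Every gene of the path is named; other lists give up to 4 genes by smallest adjusted p among those past the test, or the 2 most abundant where none passed. Pdk4, Ptbp1, Hnrnpa2b1 and the events other than the Pkm exons and the Ldha intron were named after their values were seen.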

Additional observations from a re-analysis of the deposited data

How the results depend on the processing

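The 12 genes lower in cKO were 12 when only genes averaging 100 or more counted, 11 with fold changes centred on the median of all genes (Mdh2 lost its call) and 10 with adjustment over every gene with a p-value (Dld and Mdh2 lost theirs). They were 6 at an adjusted p under 0.01 (Pfkl, Ldhb, Dld, Idh3a, Idh3b and Mdh2 were lost). They were 6 when sleuth had to call them too and 0 when featureCounts had to. The featureCounts list holds 0 of the 1286 tested genes averaging 5000 or more, and 11 of the 12 are of that abundance. The cause was not tested. The count of higher genes was 0 under each of these settings. Of these settings only the centring alters a log2 fold change, by the median of -0.0038, so no sign of a gene that passed could turn. Called events were 1 at 10 points, 4 at 5 points, 0 at 20 points, and 9 by an absolute difference of at least 10 points alone. Measured by exon 10 instead of exon 9, the Pkm change was -8.55 points, with a minimum change under the threshold. No paired analysis was possible because the tables hold no values of single hearts, and fits without each replicate were not run for the same reason. The background among genes averaging 5000 or more was added after seeing the data. Depth per library is unknown, so small differences cannot be given a counting interval.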
